A study of Mus musculus with 24 samples.

Results

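The genes described here are 48 genes of mitosis and chromosome segregation, chosen by name as rows whose mouse Ensembl identifier maps to a fixed list of symbols. The deposited table holds 35612 genes, and all 48 were found in it. Their RNA was measured in 24 RNA-seq libraries that form 8 groups of 3: regulatory T cells (Treg) and conventional CD4 T cells (Tconv), each from liver, liver-draining lymph node (LDLN), peripheral blood mononuclear cells (PBMC) and spleen. All mice were male, 5 months old, on the C57BL/6 background and carried the Foxp3Thy1.1 reporter, so every group shares that allele, in which Thy1.1 at the surface marks cells that express Foxp3. Each library held cells pooled from 3 mice, enriched for CD4 and sorted as live CD45+ TCRβ+ CD4+ cells without NK-1.1, CD8α or CD1d tetramer staining, with Foxp3 present for Treg and absent for Tconv. The labels do not say whether a library number stands for the same 3 mice in different tissues. Each p-value below rests on the spread between pools within the 8 groups, with the 24 libraries treated as independent. Any sharing of mice between libraries is not allowed for, except where the library number is fitted as a block.

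Cells enter mitosis when cyclin-dependent kinase 1, bound to a B-type cyclin, becomes active. Chromosomes then attach to the spindle through kinetochores, and a checkpoint holds the anaphase-promoting complex until every kinetochore is attached. Most genes for these steps are transcribed in a wave in late G2, so in a mixed population their RNA is a common measure of the cells that are cycling. Treg in non-lymphoid tissues are known to hold many activated and dividing cells. In bulk RNA, a larger share of cycling cells and more RNA per cycling cell cannot be told apart.

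Values are the authors' normalized read counts, in which each library's counts are divided by a single factor, and they are called normalized values here. The 24 libraries held 17523927 to 25398037 reads. Cd4 (10356 to 27945) and Cd3e (20836 to 28386) were high in every library. Foxp3, the lineage factor of Treg, was at 1402 to 2227 in the 12 Treg libraries and at 13.6 to 30.5 in 7 Tconv libraries. In the other 5 Tconv libraries, Liver Tconv 1 and 3, LDLN Tconv 3, PBMC Tconv 1 and Spleen Tconv 3, Foxp3 was at 305.3 to 627.4, although they were sorted as lacking it. Liver Tconv 2 stood apart through markers of other cells: its summed value over 11 macrophage genes was 10722, against 254.2 and 266.7 in the other 2 liver Tconv libraries, and over 8 NK cell genes 15541 against 4035 and 5270. Results that rest on these libraries are given below with and without them.

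Many mitotic promoters carry a CCAAT box, which the factor NF-Y binds, and a CHR element (TTTGAA), which the DREAM and B-MYB complexes use to hold these genes down in resting cells and to switch them on in G2. A promoter window from RefSeq (GRCm38.p6, 250 bases before to 50 after the start site) was matched for 40 of the 48 genes. The 250 bases before the start are printed for 5 of them, chosen after their values were seen: Cdk1, Ccnb2 and Mki67, which differed strongly between groups, and Cdc25b and Kif20b, whose values followed other patterns. Capitals mark CCAAT or TTTGAA on either strand (ATTGG is CCAAT on the opposite strand), and each is read 5′ to 3′ in the direction of its gene. The windows are chr10:69352913-69353162 (Cdk1, minus strand), chr9:70421555-70421804 (Ccnb2, minus strand), chr7:135716380-135716629 (Mki67, minus strand), chr2:131186698-131186947 (Cdc25b, plus strand) and chr19:34922108-34922357 (Kif20b, plus strand).
Cdk1: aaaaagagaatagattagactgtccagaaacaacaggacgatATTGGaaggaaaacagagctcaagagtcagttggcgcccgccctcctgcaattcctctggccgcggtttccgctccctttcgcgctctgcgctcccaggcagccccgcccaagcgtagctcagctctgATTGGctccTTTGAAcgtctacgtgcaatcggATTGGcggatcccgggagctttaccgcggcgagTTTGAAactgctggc
Ccnb2: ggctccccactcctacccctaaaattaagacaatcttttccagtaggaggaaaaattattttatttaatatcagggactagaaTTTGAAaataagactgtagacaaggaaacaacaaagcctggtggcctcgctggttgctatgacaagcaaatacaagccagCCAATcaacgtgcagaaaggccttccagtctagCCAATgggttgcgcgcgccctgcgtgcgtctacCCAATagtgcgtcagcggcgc
Mki67: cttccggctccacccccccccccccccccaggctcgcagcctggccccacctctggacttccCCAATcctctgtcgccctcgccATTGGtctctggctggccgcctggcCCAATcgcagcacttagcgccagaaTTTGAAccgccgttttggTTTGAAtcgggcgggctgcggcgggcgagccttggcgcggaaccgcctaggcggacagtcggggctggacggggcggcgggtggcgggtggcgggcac
Cdc25b: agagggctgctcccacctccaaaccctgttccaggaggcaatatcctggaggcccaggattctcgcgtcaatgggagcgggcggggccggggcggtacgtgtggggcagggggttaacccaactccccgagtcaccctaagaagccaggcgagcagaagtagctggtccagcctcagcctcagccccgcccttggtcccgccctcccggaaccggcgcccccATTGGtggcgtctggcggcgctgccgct
Kif20b: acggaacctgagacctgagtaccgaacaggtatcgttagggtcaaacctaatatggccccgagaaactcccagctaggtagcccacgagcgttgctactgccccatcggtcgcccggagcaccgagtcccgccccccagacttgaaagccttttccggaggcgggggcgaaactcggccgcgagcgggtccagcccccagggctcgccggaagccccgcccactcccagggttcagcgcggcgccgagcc

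The 5 printed genes do not stand for all 40. Melk, with the largest liver difference, and Nusap1, Nuf2 and Birc5 held neither CCAAT nor TTTGAA in the 300-base window, while Hmmr, with smaller differences, held 5 CCAAT boxes and 1 TTTGAA. The Cdk1, Ccnb2 and Mki67 windows each held 3 CCAAT boxes and 2 TTTGAA elements. Of the 2 TTTGAA elements in Ccnb2, the match at 5 lay after the start site and is not in the printed bases. In Ccnb2 the CCAAT boxes began at -87, -54 and -21 from the start, all in the same direction. Cdc25b held a single CCAAT box, at -28, and no TTTGAA. Kif20b held no CCAAT box, and its 2 TTTGAA matches, at 8 and 14, lay after the start site. Over the 40 matched genes, 31 (77.5%) held at least 1 CCAAT, against 38.0% of 26994 promoter windows of the same length. TTTGAA was found in 30 of them (75.0%, against 18.2%), and both in 25 (62.5%, against 7.14%). An E2F site, searched as TTTCGCGC or TTTGGCGC, was found in 2 (5.0%, against 0.841%). All motifs were searched on both strands. No motif contains another, and adjoining matches may share end bases. A match describes these letters in this window and does not show that a factor binds there.

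**Figure D1:**
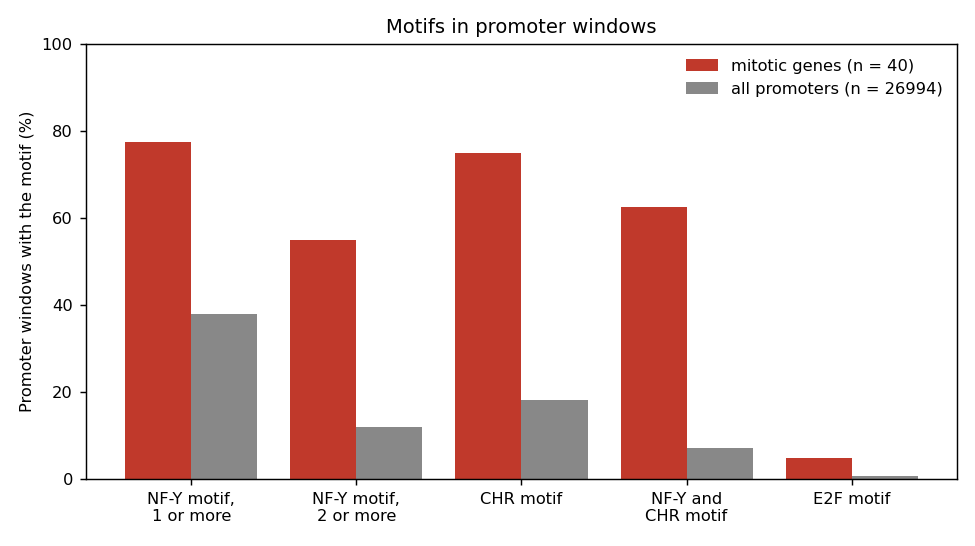
Share of promoter windows (vertical axis, percent) that held each motif, for the 40 matched mitotic genes and for all 26994 promoters. The NF-Y motif is CCAAT and the CHR motif TTTGAA; both were found together in 62.5% of the mitotic promoters and in 7.14% of all promoters.

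Liver Treg held the highest group mean for all 48 genes. Summed over the 48 genes, the normalized value was 57477 ± 14586 (SD, n = 3) in liver Treg, 0.271% of the library on average. It was 25640 ± 1977 in spleen Treg, 22542 ± 6220 in PBMC Treg and 9670 ± 772.7 in LDLN Treg. In Tconv the sums were 15805 ± 5558 in liver, 13920 ± 1732 in spleen, 9543 ± 715.2 in PBMC and 8034 ± 842.8 in LDLN. The lowest liver Treg library (42418) lay above the highest library of any other group (29410, PBMC Treg 3), whereas the LDLN Treg range of 8816 to 10320 overlapped LDLN Tconv (7219 to 8902) and PBMC Tconv (8781 to 10201). Spleen Treg came second for 39 genes and PBMC Treg for 8 (Ccnb2, Cdc25b, Cdc25c, Incenp, Kif22, Prc1, Anln and Racgap1). The exception was Cenpa, for which spleen Tconv came second. LDLN Tconv was the lowest group for 26 genes and PBMC Tconv for 13.

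**Figure D2:**
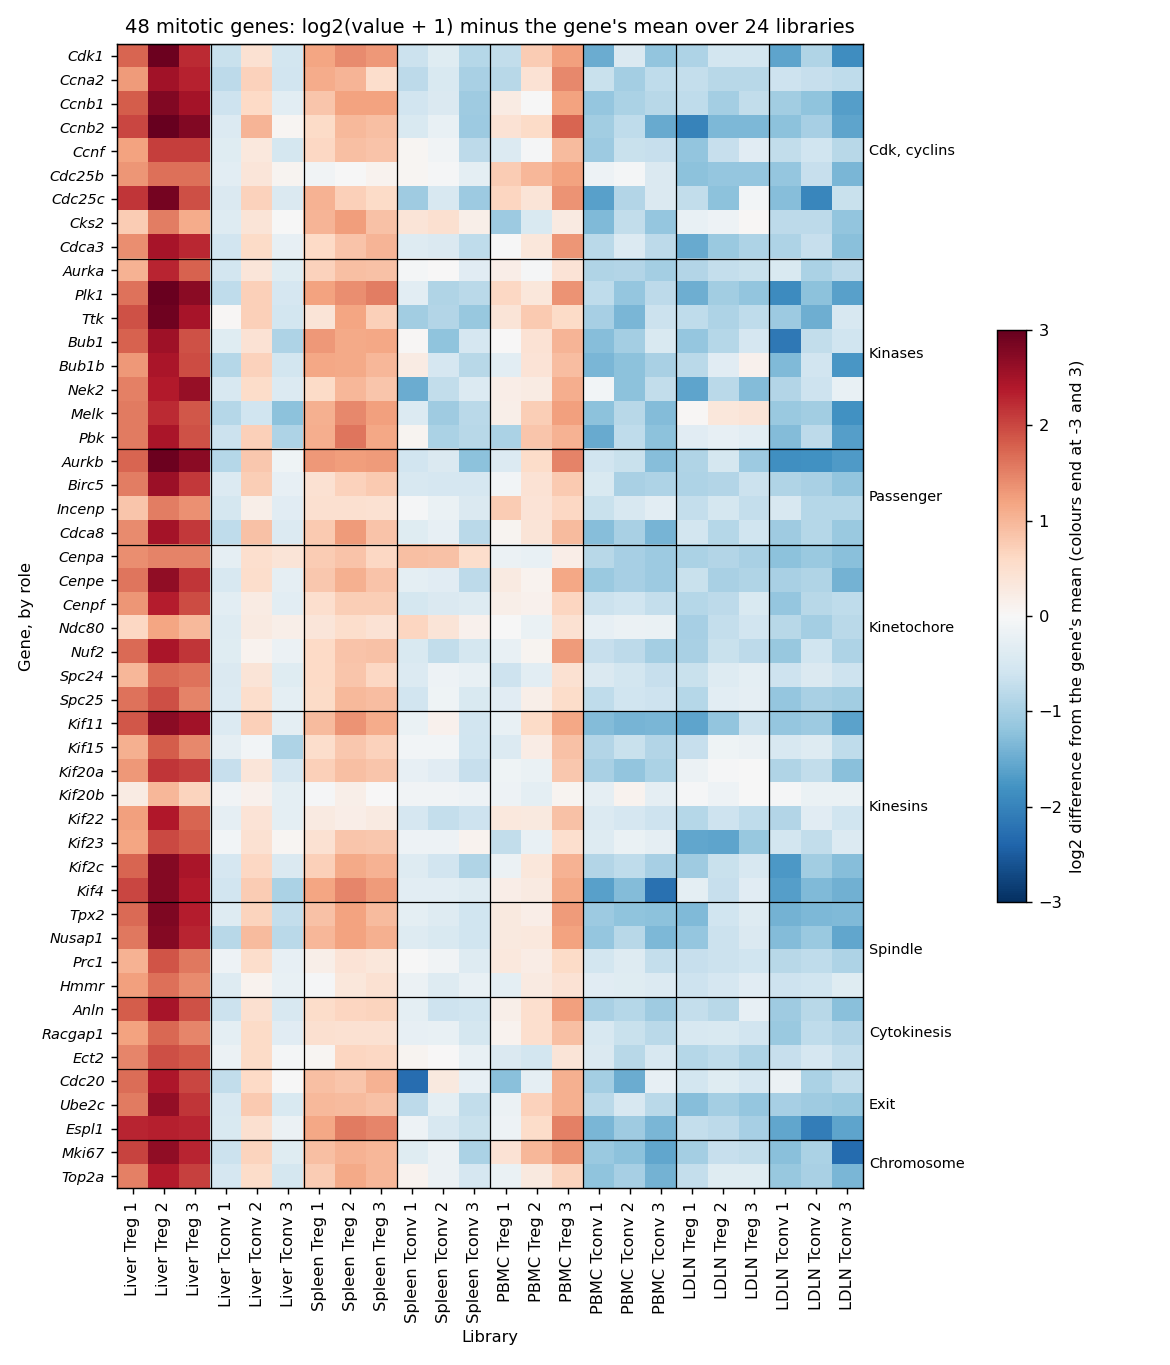
Each cell shows log2(normalized value + 1) of a gene (vertical axis, grouped by role) in a library (horizontal axis), minus the gene's mean over the 24 libraries. The 3 liver Treg columns are the darkest red for most genes, and within that group library 1 was the lowest for 46 genes and library 2 the highest for 47; Kif20b is nearly even outside liver Treg, and Cenpa is red in spleen Tconv.

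The genes also differed in level. Exon length was taken as all annotated exon bases of a gene over its transcripts (GENCODE M21). The order of genes below therefore also depends on the annotation. Per kilobase of exon, the normalized value in liver Treg was highest for Cdc25b (1660), followed by Ccnb2 (982.5), Cks2 (826.8), Top2a (743.3) and Mki67 (639.9). The lowest were Cdc25c (46.8), Espl1 (38.5) and Anln (34.9). Cks2, which encodes a small subunit of the cyclin-dependent kinase complex, was nearly as high per kilobase in spleen Treg (762.5) as in liver Treg.

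Treg were first compared with Tconv within each tissue. In liver, all 48 genes rose in Treg, by a median of 2.14 on the log2(value + 1) scale, from 0.72 for Kif20b to 2.78 for Melk. The tests here are limma's moderated tests over the 18576 genes that reached a value of 10 in at least 3 libraries, which all 48 genes did, and a gene is called at a Benjamini-Hochberg adjusted p under 0.05. Of all genes tested, 10.2% rose and 10.3% fell in this comparison, and the median difference over all genes was 0.026. In all 48 genes every liver Treg library lay above every liver Tconv library, which held for 16.9% of all genes.

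The proliferation marker Mki67, whose protein coats mitotic chromosomes, was at 5182, 7969 and 6163 in liver Treg and at 809.9, 2022 and 983 in liver Tconv. Its log2 difference was 2.43 (SE 0.316, limma adjusted p = 9.39e-06). Top2a, the topoisomerase that untangles sister chromatids, was at 4718, 8558 and 6823 against 1165, 2404 and 1152. For both genes, Liver Tconv 2 was the highest Tconv library and still lay below the lowest Treg library.

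The genes that start mitosis, Cdk1 with its cyclins and regulators, rose in all 9 cases in liver (median 2.26). Cdk1 itself was at 428.5, 979.6 and 604.5 in liver Treg and at 79.6, 175.8 and 85.7 in liver Tconv, the largest difference of the class (2.56, SE 0.406, limma adjusted p = 8.75e-05). Its partner Ccnb1 was at 685.3, 1320 and 1083 against 124.7, 292.9 and 154.5. Cks2 had the smallest difference of the class (1.15). Cdc25b, a phosphatase that activates Cdk1, was at 5299, 6641 and 6627 against 1676, 2690 and 2244, a difference of 1.51.

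All 8 mitotic kinases rose in liver, from 1.88 for Aurka, the spindle pole kinase, to 2.78 for Melk. Melk was at 342.6, 553.3 and 426.3 in liver Treg and at 64.0, 75.9 and 48.9 in liver Tconv (SE 0.263, limma adjusted p = 1.57e-07). Plk1, which acts at centrosomes and kinetochores from mitotic entry to cytokinesis, was at 313.7, 794.2 and 660.8 against 59.1, 167.1 and 70.8. The 3 Melk values in liver Tconv lay close together, whereas Liver Tconv 2 was more than the sum of the other 2 for Plk1.

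The chromosomal passenger complex, which corrects faulty attachments, joins the kinase Aurkb with Incenp, Birc5 and Cdca8. All 4 genes rose in liver. Aurkb was at 423.7, 978.6 and 825.5 in Treg and at 68.9, 220.9 and 114.7 in Tconv, a difference of 2.53. Birc5 (survivin) was at 940.1, 1922 and 1401 against 244.5, 537.9 and 272.2. The scaffold Incenp had the smallest difference of the complex (1.48), with 438.2, 714.6 and 644.1 against 170.7, 276.6 and 195.4.

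Among 7 kinetochore genes the difference in liver ran from 0.90 for Ndc80 to 2.24 for Nuf2, although both encode subunits of the same microtubule-binding complex. Among 8 kinesins it ran from 0.72 for Kif20b to 2.63 for Kif4, a chromosome-bound motor. The spindle genes ran from 1.46 for Prc1, which bundles the central spindle, to 2.44 for Nusap1. The cytokinesis genes ran from 1.49 for Racgap1 to 2.27 for Anln, and the genes of mitotic exit from 2.09 for Cdc20, the activator of the anaphase-promoting complex, to 2.35 for Espl1, the protease that cuts cohesin. All of these differences passed the test.

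**Figure D3:**
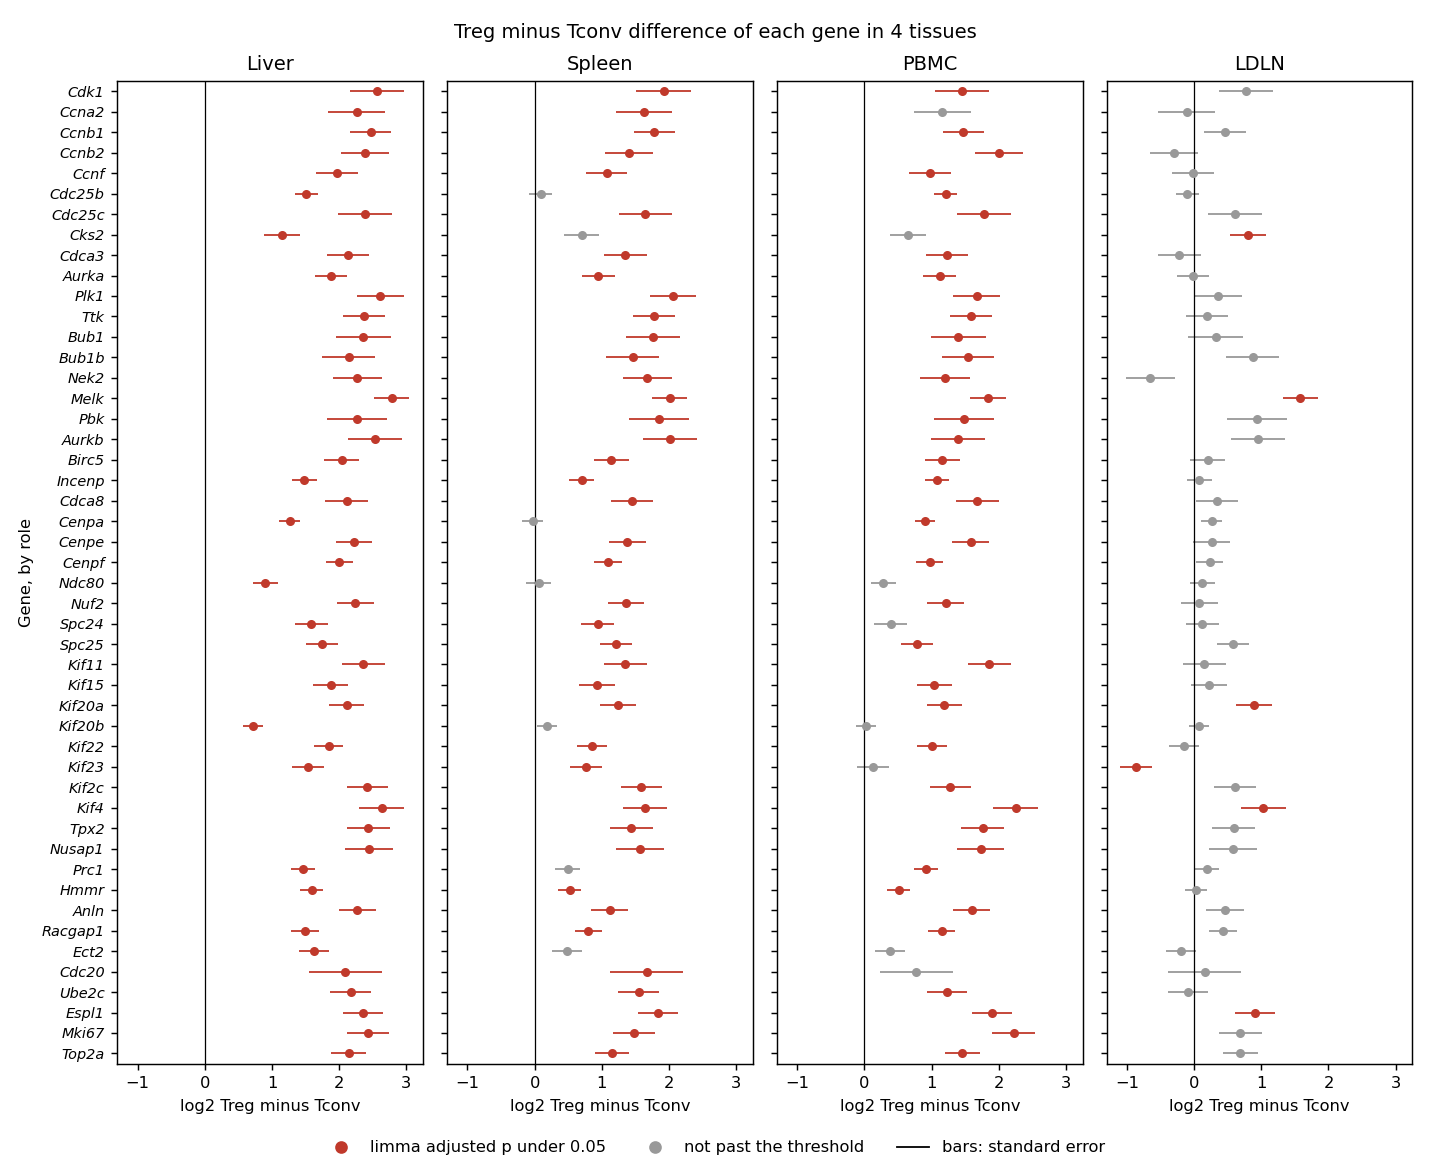
log2 difference of Treg minus Tconv (horizontal axis) for each gene (vertical axis, by role) in 4 tissues; points are limma estimates, bars standard errors, and red points passed an adjusted p of 0.05. All 48 genes are red in liver, 41 in spleen, 40 in PBMC and 6 in LDLN, where Kif23 lies to the left of 0.

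In spleen, 41 of the 48 genes rose in Treg (10.1% of all genes did) and none fell (8.75%), and the median difference over all 48 was 1.36. In 44 genes every spleen Treg library lay above every spleen Tconv library (17.5% of all genes). The largest difference was that of Plk1, at 236.1, 267.1 and 293.6 in Treg and 80.9, 53.5 and 57.2 in Tconv (2.06, SE 0.348, limma adjusted p = 0.0002). The smallest that passed was that of Hmmr, a spindle assembly factor, at 370.2, 479.2 and 519.8 against 333.3, 289.4 and 323.0 (0.52).

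The 7 genes that did not pass in spleen were Cdc25b, Cks2, Cenpa, Ndc80, Kif20b, Prc1 and Ect2. Cdc25b was at 1965, 2103 and 2246 in spleen Treg and at 2187, 2039 and 1711 in spleen Tconv, a difference of 0.09 (SE 0.168). Cenpa, the histone H3 variant that marks the centromere, was at 1589, 1680 and 1434 against 1736, 1730 and 1352 (-0.03, SE 0.151). In both genes the Treg and Tconv libraries overlapped. The difference was 0.06 for Ndc80 (SE 0.185), 0.18 for Kif20b, 0.48 for Ect2, 0.49 for Prc1 and 0.70 for Cks2 (limma adjusted p = 0.0671).

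In PBMC, 40 genes rose in Treg (10.2% of all genes did) and none fell (7.95%), and the median difference over all 48 was 1.22. In 38 genes the libraries did not overlap (15.8% of all genes were higher without overlap). Kif4 differed most, at 108.8, 115.0 and 210.0 in Treg against 30.2, 38.0 and 19.4 in Tconv (2.25, SE 0.331, limma adjusted p = 3.7e-05). Mki67 followed at 2.22, with 1726, 2540 and 3160 against 584.9, 540.9 and 429.8. The smallest difference that passed was again that of Hmmr (0.51), at 310.2, 458.1 and 508.2 against 298.6, 292.0 and 286.5.

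PBMC Treg 3 was the highest of its group for 46 genes, and without it the count in PBMC was 29. Cdk1 shows this spread: PBMC Treg were at 75.7, 216.9 and 298.1, and library 1 lay below PBMC Tconv 2 (93.8) among Tconv values of 44.7, 93.8 and 55.3. The 8 genes that did not pass in PBMC were Ccna2, Cks2, Ndc80, Spc24, Kif20b, Kif23, Ect2 and Cdc20. For Kif23, a motor of the central spindle, Treg were at 203.3, 290.6 and 480.5 and Tconv at 259.5, 296.3 and 281.4 (0.13, SE 0.236). Kif20b differed by 0.03 (SE 0.148). Cdc25b, which did not pass in spleen, rose in PBMC Treg by 1.21 (SE 0.168, limma adjusted p = 1.9e-05), at 3574, 4231 and 4841 against 1878, 2012 and 1569.

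**Figure D4:**
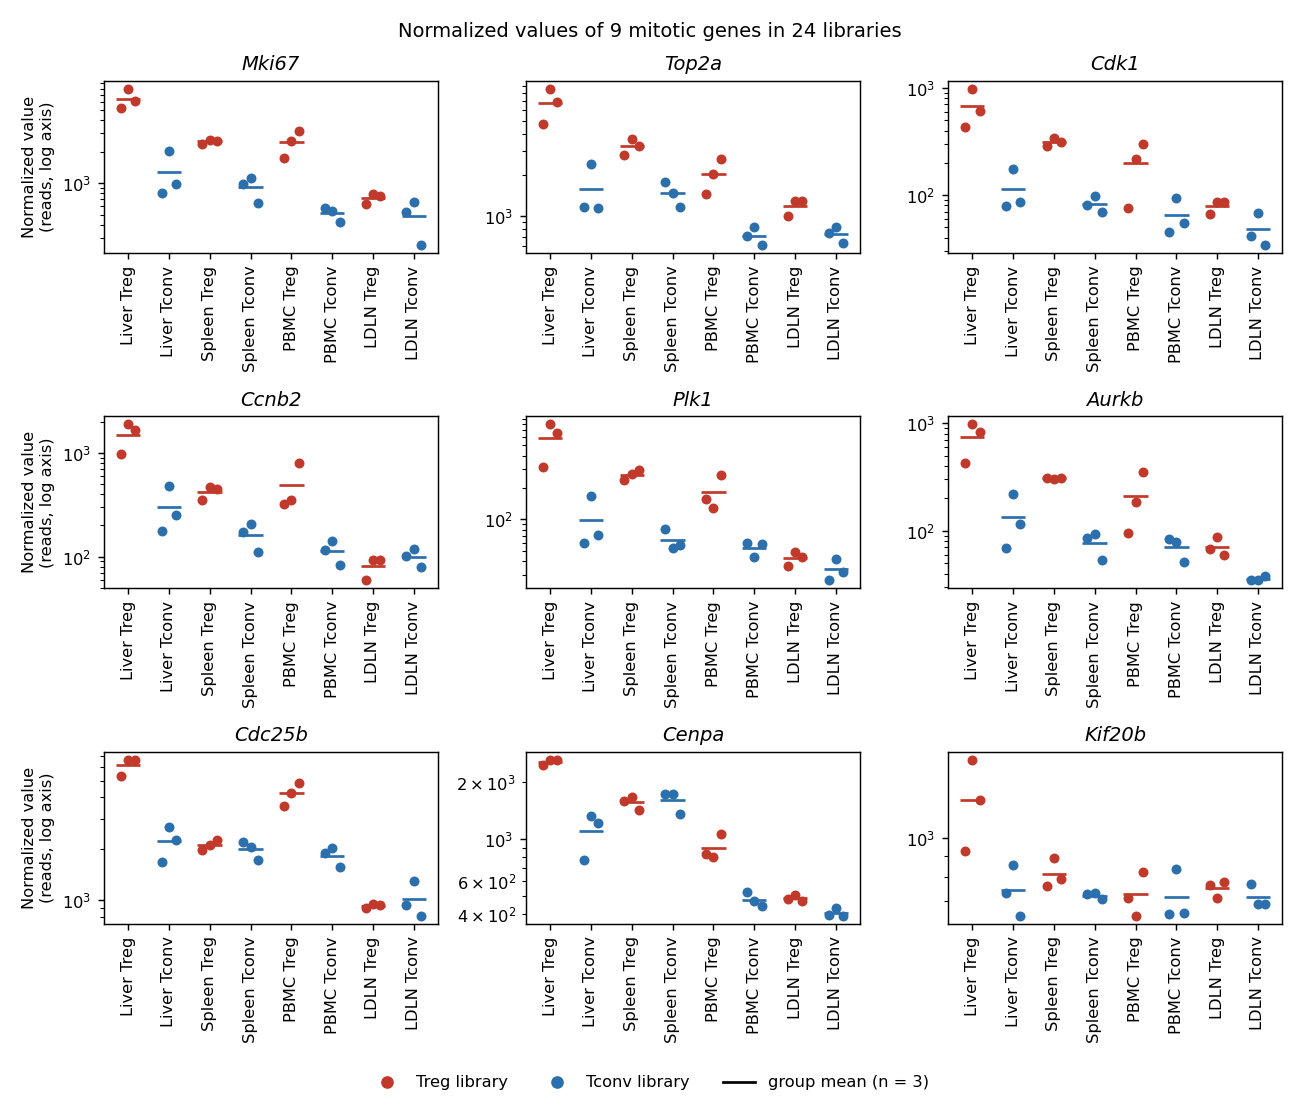
Normalized values (log axis) of 9 genes in the 24 libraries; points are libraries, bars group means (n = 3), red Treg and blue Tconv. Liver Treg lies highest in all 9 panels, Cdc25b is second highest in PBMC Treg (3574 to 4841), and Kif20b lies between 641.7 and 891.9 in every library outside liver Treg.

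In LDLN the count was close to that of genes at large. Of the 48 genes, 5 rose in Treg (7.83% of all genes did) and 1 fell (5.99%), and the median difference over all 48 was 0.24. In 14 genes every Treg library lay above every Tconv library (17.2% of all genes). Melk rose most, at 118.5, 147.6 and 152.4 in Treg against 52.8, 56.2 and 32.1 in Tconv (1.58, SE 0.263, limma adjusted p = 0.000169). Kif4 (1.03), Espl1 (0.90), the cytokinesis kinesin Kif20a (0.89) and Cks2 (0.80) also rose. Kif23 fell by 0.86 (SE 0.236, limma adjusted p = 0.0164), at 113.8, 112.7 and 153.3 in Treg against 229.3, 201.4 and 254.9 in Tconv.

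Several genes with large differences elsewhere did not pass in LDLN. Mki67 was at 628.8, 782.1 and 763.7 in Treg and at 531.7, 655.9 and 256.9 in Tconv (0.69, SE 0.316, limma adjusted p = 0.181). Cdk1 (0.77) and Ccnb1 (0.46) had positive differences that did not pass, and Cdc25b differed by -0.10. Top2a, at 1005, 1277 and 1283 against 743.8, 832.7 and 631.2, did not pass (0.69, limma adjusted p = 0.0825). It did with the library number as a block (limma adjusted p = 0.0338, and 0.0251 with the block within tissue). Whether library numbers pair Treg and Tconv of the same mice is not known. The LDLN count depended on every library of that tissue: it was 1 to 3 when any of the 6 was left out, and 2 without the 5 Tconv libraries with Foxp3. Melk passed in each of these settings.

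Liver Treg were next compared with Treg of the other tissues. Against LDLN Treg all 48 genes rose, where 15.2% of all genes rose and 14.9% fell (30.1% in either direction), with a median of 2.71, and no library of the 2 groups overlapped in any of them (24.3% of all genes were higher without overlap). The largest difference was that of Ccnb2, the second B-type cyclin, at 969, 1890 and 1654 in liver Treg against 58.8, 92.8 and 93.3 in LDLN Treg (4.16, SE 0.358, limma adjusted p = 3.3e-08). The smallest was that of Kif20b (0.69), at 926.5, 1558 and 1237 against 766.3, 709.3 and 777.0. Mki67 differed by 3.13 and Plk1 by 3.66.

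Against PBMC Treg all 48 genes also rose, where 7.03% of all genes rose and 7.39% fell, with a median of 1.60, and 47 showed no overlap (14.8%). Cdc20 differed most (2.18, SE 0.544, limma adjusted p = 0.00948), at 149.6, 253.0 and 188.6 in liver Treg against 18.9, 38.3 and 98.4 in PBMC Treg. Cdc25b differed least (0.56, SE 0.168, limma adjusted p = 0.0286).

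Against spleen Treg 39 genes rose (8.58% of all genes did), the median over all 48 was 1.12, and 46 showed no overlap (18.2%). Ccnb2 differed most (1.78), spleen Treg being at 354.1, 468.6 and 446.8. Kif20b differed least among those that passed (0.58), spleen Treg being at 762.0, 891.9 and 791.6. The 9 that did not pass were Cdk1, Ccna2, Cks2, Bub1, Bub1b, Melk, Pbk, Ndc80 and Cdc20. Cdk1 differed by 1.01 (SE 0.406, limma adjusted p = 0.0869) and Cks2 by 0.09 (SE 0.263), at 428.5, 739.8 and 548.2 against 514.2, 605.5 and 463.3. The count against spleen rested on Liver Treg 2: without it, 19 genes passed, whereas 48 passed against LDLN and 41 against PBMC.

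Among the Treg of LDLN, PBMC and spleen, 46 genes differed by limma's F-test, with Kif20b and Cdc20 not passing, where 38.8% of all genes differed. Aurkb was at 67.3, 86.8 and 59.0 in LDLN, at 94.6, 186.7 and 354.5 in PBMC and at 310.3, 300.8 and 308.2 in spleen (limma adjusted p = 0.000892). Spleen libraries lay close together for this gene and PBMC libraries far apart. Incenp had another order, at 150.8, 170.6 and 149.5 in LDLN, at 416.1, 328.9 and 382.2 in PBMC and at 346.1, 346.2 and 337.4 in spleen, so that PBMC and spleen overlapped.

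Tconv differed less between tissues. Liver Tconv exceeded LDLN Tconv in 26 genes (6.78% of all genes rose and 4.67% fell), by 0.75 for Ect2, which directs the cleavage furrow, to 1.72 for Aurkb. Over all 48 genes the differences ran from 0.05 to 1.72, with a median of 0.91. In 35 genes no libraries overlapped (15.2%). Aurkb was at 34.5, 35.1 and 38.1 in LDLN Tconv, and Ect2 at 158.3, 182.7 and 156.6 there against 228.9, 386.1 and 246.2 in liver Tconv. Against PBMC Tconv 10 genes rose, where 3.2% of all genes rose and 4.77% changed in either direction, from 0.98 for the kinetochore motor Cenpe to 1.46 for Kif4, and in 31 no libraries overlapped (11.2%). Cenpe was at 225.7, 454.3 and 264.2 in liver Tconv against 146.5, 158.1 and 149.4 in PBMC Tconv, and Kif4 at 63.2, 162.3 and 48.9 in liver Tconv.

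Liver Tconv 2 was the highest of its group for all 48 genes. Without it, 5 genes passed against LDLN Tconv and 1 against PBMC Tconv. Other libraries also moved these counts, to 15 against LDLN without LDLN Tconv 1, and against PBMC to 1 without PBMC Tconv 3, 3 without PBMC Tconv 1 and 17 without Liver Tconv 1. With only the groups compared in the fit, 7 and 1 passed. The markers of other cells in Liver Tconv 2 are given above. Their part in these results was not tested. Without the 5 Tconv libraries with Foxp3 the counts were 32 and 25, but Liver Tconv 2 is then the only liver Tconv library and is assumed to vary like the other groups, so these counts are no check of the result. Against spleen Tconv, 1 gene rose (3.45% of all genes did) and 1 fell (4.43%), where 7.88% of all genes changed in either direction. The checkpoint kinase Ttk was at 51.7, 83.6 and 33.9 in liver against 24.1, 27.2 and 22.4 in spleen (1.08, SE 0.314). Cenpa fell by 0.57 (SE 0.151, limma adjusted p = 0.023), at 771.3, 1325 and 1216 against 1736, 1730 and 1352, and for 6 genes liver was higher without overlap (10.9% of all genes).

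Among the Tconv of LDLN, PBMC and spleen, 11 genes differed by limma's F-test, where 27.4% of all genes did: Cdc25b, Cks2, Aurka, Cenpa, Ndc80, Kif11, Kif4, Prc1, Espl1, Mki67 and Top2a. Cenpa had the smallest p (limma adjusted p = 6.17e-09), at 397.8, 433.3 and 392.4 in LDLN, at 524.5, 470.2 and 441.1 in PBMC and at the spleen values given above. Cdc25b was at 940.6, 1293 and 806.8 in LDLN Tconv, below every PBMC and spleen Tconv library.

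Whether the Treg to Tconv difference itself depended on tissue was tested as an interaction. The liver difference was the largest of the 4 tissues for all 48 genes, and the LDLN difference the smallest for 44. LDLN, PBMC and spleen are called the 3 lymphoid sites here, although PBMC come from blood. The liver difference exceeded the mean of the 3 lymphoid sites past the threshold in 10 genes (0.377% of all genes) and fell short of it in none (0.371%), with a median excess of 1.16 over the 48. Kif23 had the largest excess among them (1.51, SE 0.273, limma adjusted p = 0.00971) and Cenpa the smallest (0.88, SE 0.175, limma adjusted p = 0.017). The others were Ect2 (1.41), Nuf2 (1.36), Kif22 (1.27), Cenpf and Hmmr (both 1.24), Aurka (1.20), Cdc25b (1.11) and Prc1 (0.93).

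These 10 were not the genes with the largest liver differences. Mki67, for which the liver difference was 2.43 and the lymphoid mean 1.46, had an excess of 0.97 (SE 0.365, limma adjusted p = 0.27), and Cdk1 1.18 (SE 0.469, limma adjusted p = 0.308). Nek2, a centrosome kinase, had the largest estimate of all (1.53) with a SE of 0.426 and did not pass. The count moved with single liver libraries: 2 genes passed without Liver Treg 2 and 36 without Liver Tconv 2. It was 28 with the library number as a block within each tissue, and 0 without the 5 Tconv libraries with Foxp3, which leaves Liver Tconv 2 alone in its group, assumed to vary like the others. Cdc25b and Hmmr passed whichever library was left out and under every other scaling, filter and tool tried, though not without those 5 libraries.

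**Figure D5:**
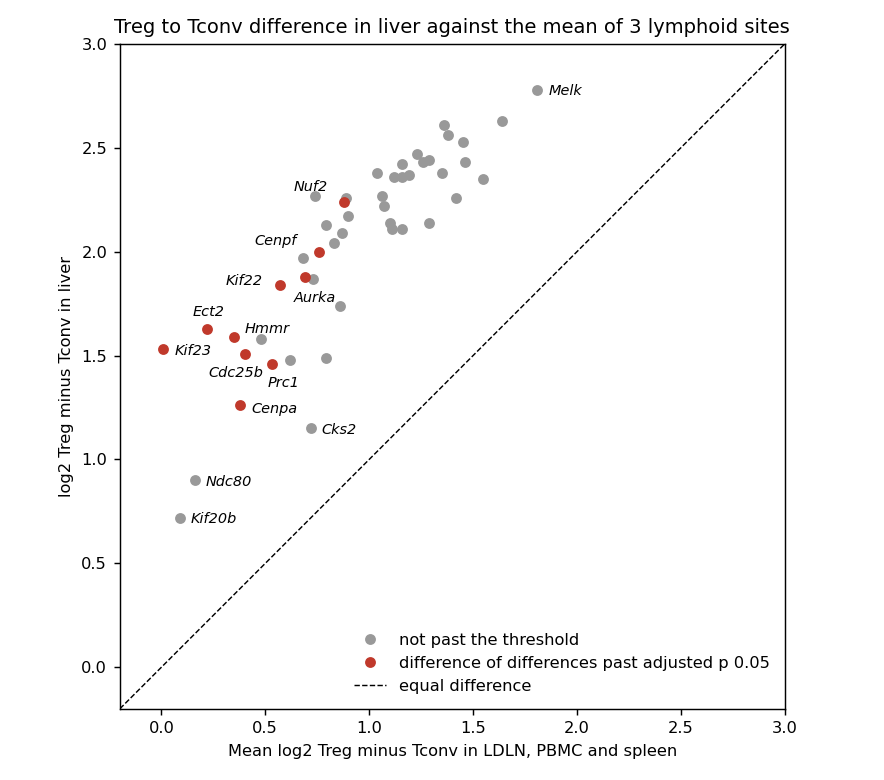
log2 difference of Treg minus Tconv in liver (vertical axis) against its mean over LDLN, PBMC and spleen (horizontal axis) for the 48 genes; the dashed line marks equal differences and red points are the 10 genes whose excess in liver passed an adjusted p of 0.05. All 48 points lie above the line, and Kif23 lies farthest to the left, with a lymphoid mean of 0.01.

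Within the 3 lymphoid sites the difference depended on tissue for Cdc25b (limma F-test, adjusted p = 0.0101) and Kif23 (adjusted p = 0.0399), 2 of 48 where 0.953% of all genes did. The count depended on the fit: it was 5 with the library number as a block or with quantile scaling, 13 with the block within tissue, 12 with DESeq2 and 11 when only the 6 lymphoid groups were fitted. Cdc25b differed by -0.10 in LDLN, 1.21 in PBMC and 0.09 in spleen. Kif23 differed by -0.86 in LDLN, 0.13 in PBMC and 0.76 in spleen. Cdc25b passed whichever library was left out, whereas Kif23 did not without any of several libraries (limma adjusted p up to 0.117 without LDLN Treg 1).

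Markers of other cells were set beside these results. Over 8 B cell genes the summed value was 32955 to 51762 in liver Treg, 19116 to 50143 in liver Tconv, 28354 to 83403 in spleen Treg, 29485 to 41437 in PBMC Treg and 15918 to 27050 in LDLN Treg. The 5 plasma cell genes were Sdc1, Jchain, Prdm1, Tnfrsf17 and Mzb1. Over these 5 genes the summed value was 4273 to 7166 in liver Treg, 750.0 and 1001 in Liver Tconv 1 and 3, and 6803 in Liver Tconv 2. It was 1155 to 1690 in PBMC Treg against 708.2 to 854.0 in PBMC Tconv, 1638 to 13466 in spleen Treg against 682.1 to 1171 in spleen Tconv, and 596.1 to 1206 in LDLN Treg against 364.3 to 429.8 in LDLN Tconv. The plasma cell sum was thus higher in Treg without overlap at these 3 sites. Among liver Tconv, all but Liver Tconv 2 lay below the liver Treg libraries. The single genes did not all follow the sum. Of the 5, only 1 was called higher in PBMC Treg than in PBMC Tconv, and the median log2 difference was -0.39. Jchain went against the sum there, at 21.8, 15.1 and 14.3 in PBMC Treg and at 34.7, 34.8 and 74.7 in PBMC Tconv. For spleen 2 were called higher (median 1.66), for LDLN 1 (0.72) and for liver 1 (1.49). Spleen Treg 1 had the highest B cell and plasma cell sums of all libraries (83403 and 13466) and the lowest sum of the 48 genes in its group (23574). LDLN Treg 3 had the lowest plasma cell sum of its group (596.1) and the highest sum of the 48 genes (10320). Elsewhere both sums went together within a group. Liver Treg 1 was the lowest in both (4273 and 42418), while PBMC Treg 3 (1690 and 29410) and Liver Tconv 2 (6803 and 22156) were the highest in both. Over 11 macrophage genes the summed value was 2295 to 2743 in PBMC Treg against 363.5 to 660.0 in PBMC Tconv. In spleen it was 2616 to 4828 in Treg against 1086 to 1170 in Tconv. Treg and Tconv overlapped in liver (303.1 to 1162 against 254.2 to 10722) and in LDLN (198.2 to 347.2 against 167.4 to 317.1). Over 8 erythroid genes, which include hemoglobin genes, the summed value was 10446 to 28191 in liver Treg, 6944 to 128006 in liver Tconv and 364.2 to 917.8 in LDLN Treg. All 7 tested erythroid genes were called higher in liver Treg than in LDLN Treg (median 4.16), as were 7 of 8 B cell genes and 5 of 5 plasma cell genes. The erythroid sums were higher in PBMC Treg (40091 to 46589) than in liver Treg. The part of these other cells in the results was not tested. With Liver Tconv 2 left out, all 48 genes still rose in liver Treg over liver Tconv. That fit cannot test the part of other cells, because Liver Tconv 2 was the highest of its group for all 48 genes. Liver Tconv 1 and 3, which remain in it, had plasma cell sums (750.0 and 1001) below those of every liver Treg library. Without the 5 Tconv libraries with Foxp3 the count of genes that rose was 36 in liver, where Liver Tconv 2 is then the only Tconv library and is assumed to vary like the other groups, 34 in PBMC and 38 in spleen.

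Other genes of the cell cycle were read from lists that do not hold the 48. Of all genes tested, 10.2% rose and 10.3% fell in Treg of liver and 10.1% and 8.75% in spleen. In PBMC 10.2% rose and 7.95% fell, and in LDLN 7.83% and 5.99%. These shares apply to every list below, and a count near them does not set a list apart. Of 28 further spindle genes, 24 rose in liver Treg over liver Tconv, 17 in spleen, 14 in PBMC and 0 in LDLN, and none fell, the medians being 2.01, 1.02, 0.97 and 0.09. Pimreg (2.73) and the kinesin Kif14 (2.51) are examples from liver. Of 34 further kinetochore genes, 22 rose and 1 fell in liver (median 0.81), 10 and 2 in spleen, 8 and 2 in PBMC and 3 and 1 in LDLN. The kinetochore gene Ska1 differed by 2.35 in liver. Of 21 condensin and cohesin genes, 9 rose and 2 fell in liver (median 0.26), among them the condensin subunits Ncaph (2.09) and Ncapg (1.97).

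Of 17 subunits and regulators of the anaphase-promoting complex, 3 rose in liver (median -0.02), led by its inhibitor Fbxo5 (1.44). Of 16 DNA replication genes, 11 rose in liver, 8 in spleen, 5 in PBMC and 4 in LDLN, and none fell. Rrm2, a subunit of ribonucleotide reductase, differed by 2.07 in liver, and Tk1, thymidine kinase, by 1.57 in liver and 1.07 in LDLN. Of 17 cell cycle transcription factors, 5 rose in liver, 5 in spleen, 3 in PBMC and 2 in LDLN, and 3 fell in PBMC and 1 in spleen. Foxm1, which drives G2 transcription, rose by 2.14 in liver (mean 214.9 against 47.4), by 1.94 in PBMC and by 0.99 in spleen.

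Of 9 G1 cyclins and their kinases, 2 rose and 2 fell in liver. The kinase Cdk6 rose in Treg of all 4 tissues, most in PBMC (1.67), then in LDLN (1.28), spleen (1.09) and liver (0.94), while the D-type cyclins Ccnd2 and Ccnd3 both fell by 0.65 in liver. Of 16 tested brakes on the cell cycle, 7 rose and 2 fell in liver, 5 and 0 in PBMC, 3 and 3 in spleen and 3 and 1 in LDLN. The inhibitor Cdkn1c rose in liver (2.82, mean 110.3 against 15.0) and in PBMC (3.19), and Wee1, the kinase that holds Cdk1 inactive, rose in LDLN (1.45), PBMC (1.61) and spleen (0.95).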

How the data were processed

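The authors deposited normalized read counts, a signal per gene in which each library's counts are divided by a single factor. Per the labels, RNA from sorted cells was SMARTer-amplified, poly(A)-selected and sequenced as TruSeq paired ends. HTSeq 0.6.1p1, Bowtie2 2.2.2, TopHat2 2.0.11, Trimmomatic 0.32, SAMtools 0.1.19 and the build GRCm38 are named per the submitters' processing notes; the strand setting and the normalization tool are not given in the sources used here. Reads were recovered from the deposited values (100.0% whole, within 0.001 for low counts and within a tolerance proportional to the count for high ones). Symbols matched 34645 of 35612 identifiers (GENCODE M21).

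The members and lists were chosen with earlier results of these data known, and the Tconv libraries with Foxp3 were picked after their values were seen. The named genes were fixed by rule: 9 genes, the extremes of each comparison and of each role. limma 3.58.1 (R 4.3.3) was fitted to log2(value + 1) with a variance trend over 8 groups (16 residual df), on 18576 genes at 10 or more in 3 of 24 libraries, with Benjamini-Hochberg adjustment. edgeR 4.0.16 (quasi-likelihood) and DESeq2 1.42.0 on recovered reads were alternatives. Scripts were tested on simulated data.

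As a check of pairing, deviations of Treg and Tconv libraries with the same tissue and number were correlated. The values were 0.102 to 0.385 in liver, 0.122 to 0.310 in LDLN, 0.082 to 0.252 in PBMC and 0.071 to 0.416 in spleen. Every same-number pair exceeded 0.1 in liver and LDLN only. Some pairs of unlike number did too, such as Liver Treg 3 with Liver Tconv 2 (0.147) and LDLN Treg 1 with LDLN Tconv 2 (0.113). These values therefore do not settle which libraries share mice.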

Additional observations from a re-analysis of the deposited data

Results flagged for a closer look

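The Treg to Tconv difference depended on tissue, by a test of the difference itself, in 10 genes for liver against the mean of the 3 lymphoid sites. The log2 excess in liver was 1.11 for Cdc25b, 1.20 for Aurka, 0.88 for Cenpa, 1.24 for Cenpf, 1.36 for Nuf2, 1.27 for Kif22, 1.51 for Kif23, 0.93 for Prc1, 1.24 for Hmmr and 1.41 for Ect2. Among LDLN, PBMC and spleen the difference depended on tissue for Cdc25b (limma F-test, adjusted p = 0.0101) and Kif23 (limma F-test, adjusted p = 0.0399). No group here has 4 or more libraries, so single libraries were not tested as outliers.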

How the results depend on the processing

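Single-gene results were tallied under each alternative for genes that passed in the results above and for some that were named without passing. Of these, 6964 kept their direction and side of the threshold, 514 no longer passed, 32 passed only under the alternative and 15 reversed. Each reversed result was a difference that had not passed. The 32 leave out all other genes that passed only under an alternative, which enter the counts below. Quantile scaling moved the median of all genes by up to 0.12 (liver Treg against LDLN Treg). Counts of called genes moved by over 1.5 times as follows, and the cause was not tested. For LDLN Treg against Tconv (6) the count was 3 with no filter, quantile scaling, no variance trend or edgeR, 10 with only the groups compared, 2 without the 5 Tconv libraries with Foxp3 and 1 to 3 with a library left out. For liver against LDLN Tconv (26) it was 7 with only the groups compared and 5 to 34 with a library left out (5 without Liver Tconv 2). For liver against PBMC Tconv (10) it was 6 with no variance trend, 1 with only the groups compared, 19 with DESeq2, 25 without the 5 libraries and 1 to 17 with a library left out (1 without Liver Tconv 2). For liver against spleen Tconv (2) it was 1 with no filter or quantile scaling, 0 with only the groups compared, and 0 to 2 with a library left out. For Tconv among lymphoid sites (11) it was 19 with only the groups compared and 6 to 11 with a library left out. For liver against spleen Treg (39) it was 19 to 40 with a library left out (19 without Liver Treg 2).

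For the excess of the liver difference (10) the count was 23 with quantile scaling, 25 with DESeq2, 0 without the 5 libraries and 2 to 36 with a library left out: 2 without Liver Treg 2, 5 without Liver Tconv 1 or 3, 18 without Liver Treg 1 or PBMC Treg 3 and 36 without Liver Tconv 2. With the library number as a block it was 19, and 28 with the block within tissue. This test uses all 8 groups, so a fit of only the groups compared was not run. For the difference among lymphoid sites (2) the count was 1 with no filter or no variance trend, 4 with a filter at 50, 5 with quantile scaling, the replicate block or without the 5 libraries, 13 with the block within tissue, 11 with only the groups compared, 12 with DESeq2 and 1 to 4 with a library left out. The block moved no other count of calls by over 1.5 times (LDLN 8, and 9 within tissue).

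Reversed log2 differences, each with its range over left-out libraries, were those of Cdc25b in LDLN (-0.25 to 0.09, the latter without LDLN Tconv 2), Kif20b in PBMC (-0.07 to 0.15, and -0.04 without the 5 libraries), Kif23 in PBMC (-0.20 without PBMC Treg 3, to 0.42), Cdc25b in spleen (-0.01 to 0.17, and -0.01 without the 5 libraries), Cenpa in spleen (-0.15 to 0.03), Ndc80 in spleen (-0.07 to 0.19, -0.07 without the 5 libraries and -0.02 with quantile scaling) and Cks2 in liver against spleen Treg (-0.11 without Liver Treg 2, to 0.28). With 3 pools a group, genes with few reads, such as Cdc20 (SE 0.544), were measured with little precision.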
